A study of Mus musculus with 15 samples.

Results

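The bone morphogenetic protein (BMP) pathway and its inhibitor of DNA binding (ID) targets were followed through 10 genes, namely Bmp4, Bmp7, Bmpr1a, Smad1, Smad6, Id1, Id2, Id3, Id4 and Msx2. They were chosen by symbol, with earlier results of these data known, from a table of 23412 genes. All 10 were among the 14508 genes with enough counts to be tested. The cells were v6.5, a male mouse embryonic stem cell (mESC) line, and polyadenylated RNA was sequenced in 5 conditions with 3 replicates each. Wild-type cells received siGLO, the transfection control, or siStag1, the siRNA against Stag1. Stag1-/- cells received siGLO, and Stag2-/- cells received siGLO or siStag1. Every condition therefore carried a transfected siRNA at 50 nM, and cells were collected at 48 hours. STAG1 and STAG2 are alternative subunits of cohesin, the ring complex that holds chromatin loops. Each knockout was made with CRISPR/Cas9 and is represented by a single clone, so an effect of genotype and a trait of that clone cannot be told apart, and p-values measure only the spread between these samples, which may be technical.

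BMP ligands are secreted proteins that bind paired type I and type II receptor kinases. The type I receptor phosphorylates SMAD1, SMAD5 and SMAD9, which join SMAD4 and enter the nucleus, where they switch on target genes. The ID genes are the best known of these targets in mESCs. ID proteins lack a DNA binding domain and hold E proteins, the partners of many lineage-determining bHLH factors, in inactive pairs, and in mESCs they help to restrain neural differentiation. SMAD6 is a target too and feeds back as an inhibitor of the receptor and of SMAD1.

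Library totals ranged from 14982560 to 19070126 counts. Stag1 stood at 2288, 2137 and 2012 normalized counts in wild-type siGLO cells and at 518, 456 and 353 after siStag1, and Stag2 stood at 663, 739 and 675 in Stag2-/- siGLO cells against 2329, 2334 and 2329 in wild-type siGLO cells. In Stag2-/- siStag1 cells Stag1 was at 667, 781 and 629, against 1875, 2204 and 1936 in Stag2-/- siGLO cells, and Stag2 was at 851, 931 and 941. The knockdown thus left 0.345 of the Stag1 level in Stag2-/- cells and 0.206 in wild-type cells, a difference that did not pass the interaction test in edgeR (adjusted p = 0.254) and passed with the replicate block (0.0253) and in DESeq2 (0.0536). The Stag1-/- clone has an in-frame deletion and kept 1826, 2368 and 1875 normalized counts of Stag1, so the Stag1 transcript cannot check that label.

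The summed level of 8 embryonic stem cell markers lay between 102000 and 107000 in wild-type siGLO cells, between 83920 and 97040 in Stag1-/- cells, between 79420 and 92960 in Stag2-/- siGLO cells and between 59130 and 72900 in Stag2-/- siStag1 cells, with 1, 4 and 7 of the 8 called lower, or 3, 5 and 7 with replicate number as a block. In wild-type siStag1 cells the sum lay between 94800 and 101900, with 0 of the 8 called lower, or 1 with the block. Marker sums of other lineages moved as well in the knockout conditions. Wild-type siStag1 cells had sums of 3261 to 3605 for primitive endoderm, 1921 to 2337 for neuroectoderm and 141 to 175 for trophoblast. For primitive streak and mesoderm they were 240 to 297, and for fibroblasts 224 to 330, with no marker of these lists called. The sum of 5 primitive endoderm markers lay between 3369 and 3694 in wild-type siGLO cells, between 294 and 468 in Stag1-/- cells, between 625 and 989 in Stag2-/- siGLO cells, and between 702 and 915 in Stag2-/- siStag1 cells, with all 5 genes called lower in each of the 3. The sum of 5 neuroectoderm markers was 1906 to 2702 in wild-type siGLO cells, 2141 to 2496 in Stag1-/- cells, 2938 to 4559 in Stag2-/- siGLO cells and 3344 to 5690 in Stag2-/- siStag1 cells. In the Stag2-/- conditions 4 and 3 of the 5 genes were called higher. Sox1 was the 1 called in Stag1-/- cells, where it fell from a mean of 440 to 58.4 normalized counts (adjusted p = 0.004 by edgeR), and it stood at 254 in Stag2-/- siStag1 cells without passing (adjusted p = 0.263). Without Stag2-/- siStag1 replicate 3 this Sox1 difference passed, at -1.66 on the log2 scale (adjusted p = 0.0304 by edgeR). Nes was 0.48 higher in Stag1-/- cells on the log2 scale without passing (adjusted p = 0.127 by edgeR), and passed with the block (0.0675) and in DESeq2 (0.0862). The sum of 5 trophoblast markers was 136 to 224 in wild-type siGLO cells, 540 to 663 in Stag1-/- cells, 72.8 to 166 in Stag2-/- siGLO cells and 86.0 to 130 in Stag2-/- siStag1 cells, with Tpbpa at 0 in all 4. Of the 3 tested, 2 were called higher in Stag1-/- cells, 2 lower in Stag2-/- siGLO cells and 1 lower in Stag2-/- siStag1 cells. Krt7, a keratin of simple epithelia, carried most of the Stag1-/- sum, at 554, 531 and 372 against 60.8, 121 and 89.0 normalized counts in wild-type siGLO cells. The other called gene was Cdx2, a trophectoderm factor, 3.27-fold higher than a mean of 10.9 (adjusted p = 0.0937 by edgeR, and 0.0927 to 0.283 as single libraries were left out). Without Krt7 the sum was 109 to 168 in Stag1-/- cells and 74.8 to 135 in wild-type siGLO cells. In Stag2-/- siGLO cells the lower call of Krt7 was lost without wild-type siGLO replicate 2 (adjusted p = 0.25 by edgeR) or 3 (0.101). It was also lost without Stag2-/- siGLO replicate 2 (0.159) or 3 (0.152). The sum of 5 primitive streak and mesoderm markers was 233 to 330 in wild-type siGLO cells, 286 to 383 in Stag1-/- cells, 171 to 493.5 in Stag2-/- siGLO cells and 135 to 172.5 in Stag2-/- siStag1 cells. Among these, T was at 80.4, 268 and 35.9 in Stag2-/- siGLO cells against a wild-type siGLO mean of 9.10, a rise of 13.9-fold (adjusted p = 0.000521 by edgeR), or 6.33-fold without replicate 2 (adjusted p = 0.00157). T rose 4.07-fold in Stag2-/- siStag1 cells (adjusted p = 0.021 by edgeR), Hand1 rose 4.51-fold in Stag1-/- cells (adjusted p = 0.00904), and Eomes fell in both Stag2-/- conditions. With the block Mixl1 was also called higher in Stag2-/- siGLO cells (adjusted p = 0.0865 by edgeR). The sum of 7 fibroblast markers lay between 222 and 541 in wild-type siGLO cells, with Lum and Dcn at 0, and between 279 and 603 in the 3 knockout conditions. Of the 4 tested, Pdgfrb was called lower in Stag2-/- siGLO cells, with overlapping replicates. That call was lost without wild-type siGLO replicate 2 or 3 or any single Stag2-/- siGLO replicate (adjusted p = 0.134 to 0.443 by edgeR). Col3a1 was called higher in both Stag2-/- conditions. Col3a1 was at 96.3 and 84.8 in replicate 1 of these and between 8.45 and 21.8 in their other replicates, and neither call held without replicate 1 (adjusted p = 0.659 and 0.589 by edgeR). The part of these shifts in the values given here was not tested, and in bulk RNA fewer cells expressing a gene and less RNA per cell cannot be told apart. Replicate 1 of both Stag2-/- conditions stood apart for Nanog, with 2540 against 4913 and 4885 normalized counts under siGLO and 587 against 2342 and 2181 under siStag1.

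**Figure D1:**
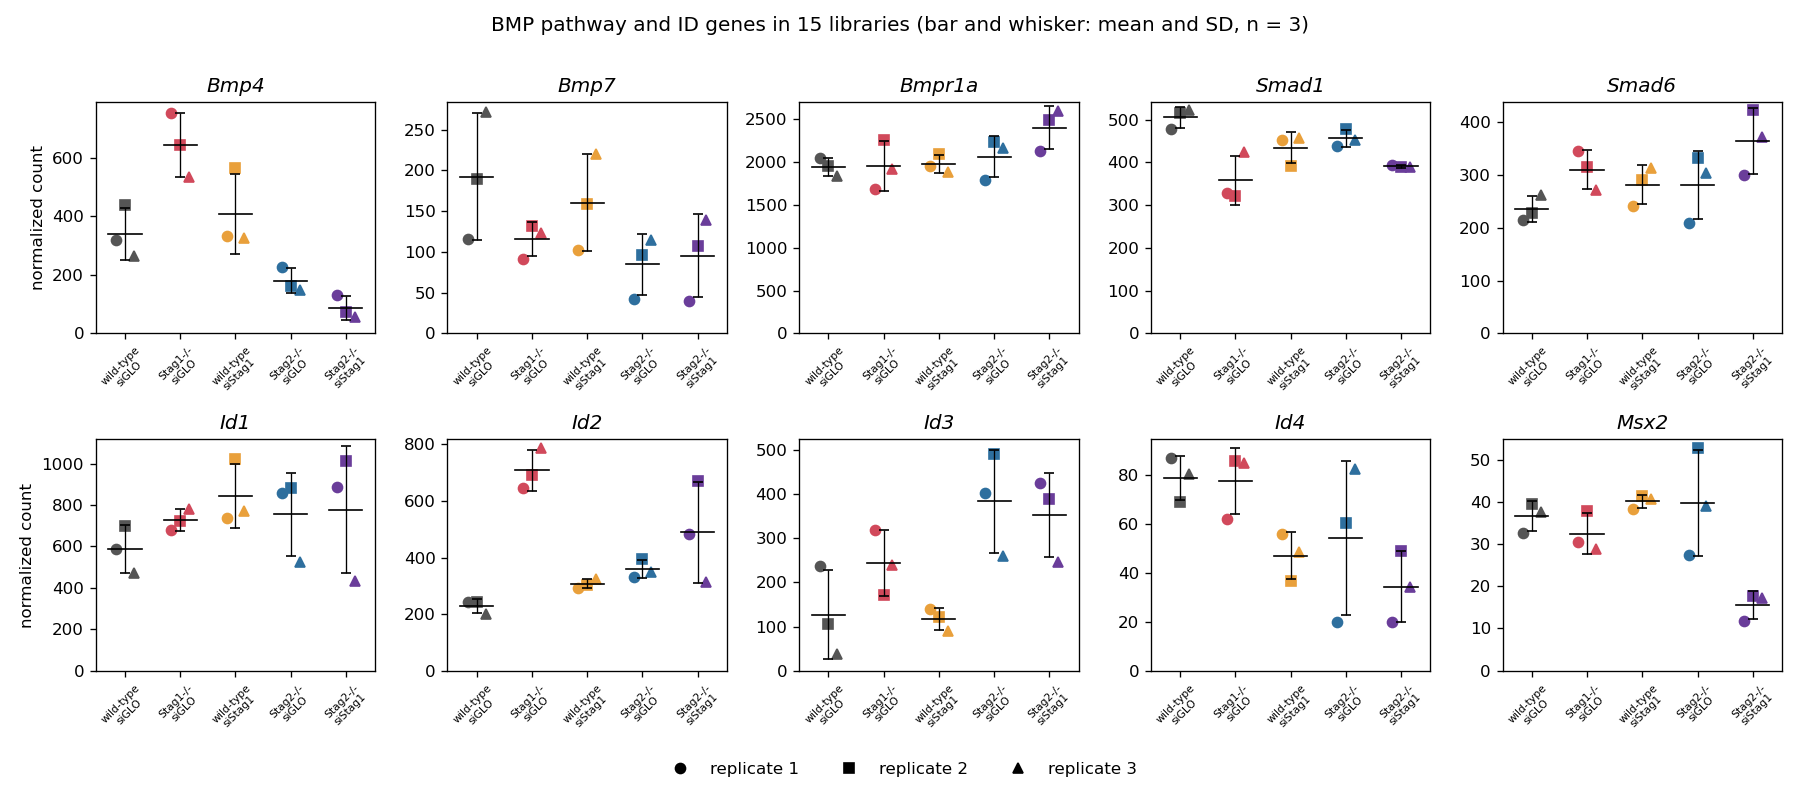
Normalized counts of the 10 genes in each of the 15 libraries, on linear axes that start at 0, with the horizontal bar at the mean and the whisker at 1 SD (n = 3). Bmp4 lay above the wild-type siGLO libraries in Stag1-/- cells and below them in both Stag2-/- conditions, whereas Id2 lay above them in all 4 other conditions.

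A normalized count here is the deposited count divided by its library's effective size and multiplied by the mean effective size, so it compares libraries but not genes. Divided by exon length, the wild-type siGLO level was highest for Id1, at 505 ± 99.6 normalized counts per kb of exon (SD, n = 3), followed by Bmpr1a at 307 ± 16.9. By mean, Bmp4 at 151 ± 39.8 and Id2 at 93.7 ± 10.0 came next, then Smad1 at 80.7 ± 3.83, Smad6 at 73.4 ± 7.59 and Id3 at 70.9 ± 56.3. Bmp7 at 47.9 ± 19.4, Id4 at 20.5 ± 2.34 and Msx2 at 11.2 ± 1.09 had the lowest means of the 10. The libraries of Id3 overlapped those of Bmp4, Id2, Smad1, Smad6, Bmp7 and Id4. Smad1 overlapped Id2 and Smad6, and Smad6 overlapped Bmp7, so these genes could not be ranked beyond their spread. Id1 and Bmpr1a held the first and second mean rank in every condition, while the places behind them changed. Id2 moved to the third mean rank in Stag1-/- cells, at 291 ± 30.0 per kb, and Id3 to the third in Stag2-/- siGLO cells, at 214 ± 65.0. Neither rank was clear of its neighbour, since Id2 and Bmp4 overlapped in Stag1-/- cells and Id3 and Id2 overlapped in Stag2-/- siGLO cells.

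Bmp4, a ligand that acts on the stem cells themselves and on their neighbours, moved in opposite directions in the 2 knockouts. Its normalized counts were 318, 438 and 263 in wild-type siGLO cells, 754, 643.5 and 533 in Stag1-/- cells, 333, 564 and 325 in wild-type siStag1 cells, 228, 163 and 149 in Stag2-/- siGLO cells, and 131, 72.8 and 54.6 in Stag2-/- siStag1 cells. All 3 Stag1-/- libraries were above all 3 wild-type siGLO libraries, and all 6 Stag2-/- libraries were below them. Against wild-type siGLO, Bmp4 rose in Stag1-/- cells by a log2 difference of 0.92 (SE 0.27, adjusted p = 0.0338) and fell in Stag2-/- siGLO cells by 0.92 (SE 0.29, adjusted p = 0.0326), both by edgeR's quasi-likelihood test with adjustment over all 14508 genes and a threshold of 0.1. The largest change was in Stag2-/- siStag1 cells, where Bmp4 fell by 1.97 (SE 0.30, adjusted p = 0.000115 by edgeR). Krt7, Cdx2 and Hand1, named above, were also called higher in Stag1-/- cells. The other tested genes of their lists, Ascl2, T, Mixl1 and Eomes, were not called there. The part of these markers in the Bmp4 values was not tested. With replicate number as a block the Bmp4 difference was 0.93 in Stag1-/- cells (SE 0.20, adjusted p = 0.003 by edgeR). In Stag2-/- siGLO cells it was -0.91 with the block (SE 0.22, adjusted p = 0.00442 by edgeR). Single libraries were left out only in fits without the block. The call in Stag1-/- cells was lost without wild-type siGLO replicate 1 (adjusted p = 0.101 by edgeR), wild-type siGLO replicate 3 (0.125) or Stag1-/- replicate 1 (0.133). The call in Stag2-/- siGLO cells was lost without wild-type siGLO replicate 2 (0.161 by edgeR) or Stag2-/- siGLO replicate 2 (0.105) or 3 (0.106).

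The Bmp4 gene lies on chromosome 14 (mm10 chr14:46383520-46390669, minus strand) and shares 89 bp of exon with Gm15217 on the opposite strand. Bmpr1a shares 290 bp with Gm17110, and Id4 shares 82 bp with A330033J07Rik and 171 bp with Gm49291, also on the opposite strand. The strand setting of the counting is not given in the sources used here, so reads from these short stretches cannot be assigned with certainty. The exons of the other 7 genes overlap no other annotated exon.

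Bmp7, a second ligand of the same receptors, was lower in Stag2-/- cells, with a wide spread between replicates. Its normalized counts were 116, 189 and 272 in wild-type siGLO cells, 91.5, 131 and 123 in Stag1-/- cells, 103, 158 and 220.5 in wild-type siStag1 cells, 42.3, 95.9 and 115 in Stag2-/- siGLO cells, and 39.4, 107 and 140 in Stag2-/- siStag1 cells. The Stag2-/- siGLO libraries lay just below the wild-type range, the closest pair being 115 and 116, while the Stag2-/- siStag1 range overlapped it. Bmp7 fell by 1.19 in Stag2-/- siGLO cells (SE 0.43, adjusted p = 0.0595 by edgeR) and by 1.01 in Stag2-/- siStag1 cells (SE 0.42, adjusted p = 0.0707). In Stag1-/- cells the log2 difference was -0.74 (SE 0.41, adjusted p = 0.269 by edgeR), and with replicate number as a block it was -0.67 and passed (adjusted p = 0.0187), as it did when only these 6 libraries were fitted (adjusted p = 0.0719). With the block the difference in Stag2-/- siGLO cells was -1.20 (SE 0.20, adjusted p = 0.000304 by edgeR). Without the block each of the Stag2-/- calls depended on particular libraries. The call in Stag2-/- siGLO cells was lost without wild-type siGLO replicate 2 (adjusted p = 0.124 by edgeR) or 3 (0.239), or without replicate 1 (0.169) or 2 (0.105) of its own group. The call in Stag2-/- siStag1 cells was lost without wild-type siGLO replicate 2 (0.127 by edgeR) or 3 (0.28), without replicate 1 (0.214) or 2 (0.107) of its own group, or when only these 6 libraries were fitted (0.102).

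Bmpr1a encodes the type I receptor through which BMP4 mainly signals in mESCs, and it varied little. In normalized counts it measured 2050, 1953 and 1836 in wild-type siGLO cells, 1686, 2264 and 1922 in Stag1-/- cells, 1952, 2096 and 1889 in wild-type siStag1 cells, 1793, 2241 and 2161 in Stag2-/- siGLO cells, and 2126, 2488 and 2599 in Stag2-/- siStag1 cells. The Stag2-/- siStag1 libraries alone stood above the wild-type siGLO range. Bmpr1a rose there by 0.30 (SE 0.11, adjusted p = 0.0448 by edgeR), a call lost without wild-type siGLO replicate 2 (0.102) or 3 (0.139) or without Stag2-/- siStag1 replicate 2 (0.12) or 3 (0.156). In the other 3 conditions its log2 difference lay between 0.01 and 0.09, with an SE of 0.11.

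Smad1, a receptor-activated transducer, fell in Stag1-/- cells and in Stag2-/- siStag1 cells. The libraries held normalized counts of 478, 516.5 and 522 in wild-type siGLO cells, 329, 322 and 424 in Stag1-/- cells, 452, 392 and 457.5 in wild-type siStag1 cells, 438, 477 and 452 in Stag2-/- siGLO cells, and 394, 388 and 389 in Stag2-/- siStag1 cells. Every library of the other 4 conditions was below every wild-type siGLO library, with the closest pair, 477 and 478, in Stag2-/- siGLO cells. Smad1 fell by 0.49 in Stag1-/- cells (SE 0.11, adjusted p = 0.00807 by edgeR) and by 0.37 in Stag2-/- siStag1 cells (SE 0.11, adjusted p = 0.018). In wild-type siStag1 cells the difference of -0.22 (SE 0.11, adjusted p = 0.834 by edgeR) and in Stag2-/- siGLO cells the difference of -0.15 (SE 0.11, adjusted p = 0.381) did not pass. Both calls held when any single library was left out.

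Smad6, the feedback inhibitor, was called higher in Stag2-/- siStag1 cells. Normalized counts of Smad6 were 215, 229 and 262 in wild-type siGLO cells, 345.5, 314 and 271 in Stag1-/- cells, 241, 291 and 313 in wild-type siStag1 cells, 208, 332 and 303 in Stag2-/- siGLO cells, and 299.6, 423 and 372 in Stag2-/- siStag1 cells. The Stag1-/- and Stag2-/- siStag1 libraries lay above the wild-type siGLO range, and the other 2 conditions overlapped it. Smad6 rose in Stag2-/- siStag1 cells by 0.63 (SE 0.18, adjusted p = 0.0107 by edgeR), and this call held when any single library was left out. In Stag1-/- cells its difference of 0.40 (SE 0.18, adjusted p = 0.154 by edgeR) passed with the replicate block, at 0.41 (adjusted p = 0.0603), and when only these 6 libraries were fitted (adjusted p = 0.0938). In Stag2-/- siGLO cells it was 0.26 (adjusted p = 0.333 by edgeR) and passed without replicate 1 of that group, at 0.43 (adjusted p = 0.0843).

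The 4 ID genes did not move together. Id2 and Id3 rose, Id4 fell in 1 condition, and Id1, the most abundant per length, was not called in any comparison with wild-type siGLO. The start regions of 8 of the 10 genes were found in RefSeq (GRCm38.p6), from 250 bases before to 50 bases after the start, and those not found were Id1 and Bmp7. Both strands were searched for GGCGCC, the GC-rich letters that BMP-activated SMADs bind, and for CAGAC, the general SMAD letters. CAGCTG, an E-box of the kind bound by E proteins, was searched as well. GGCGCC was present in 11.9% of 32851 such windows, CAGAC in 49.6% and CAGCTG in 16.3%. Of the 8 windows, Id2, Id4 and Bmpr1a held GGCGCC, at 231, 148 and 198 bases before the start, Id3 held CAGAC at 167 and 68 bases before it, and Id2 held CAGCTG at 196 bases. Bmp4, Smad1, Smad6 and Msx2 held none of the 3. The windows of Id2, Id3, Id4 and Bmp4 are shown because these genes carry the rises and falls described here. They lie at chr12:25096043-25096342 (minus strand), chr4:136143572-136143871 (plus), chr13:48260866-48261165 (plus) and chr14:46390620-46390919 (minus), are written 5′ to 3′ on the gene's strand, and carry GGCGCC and either strand of CAGAC in capitals. The E-box of Id2 is left in lower case.
Id2: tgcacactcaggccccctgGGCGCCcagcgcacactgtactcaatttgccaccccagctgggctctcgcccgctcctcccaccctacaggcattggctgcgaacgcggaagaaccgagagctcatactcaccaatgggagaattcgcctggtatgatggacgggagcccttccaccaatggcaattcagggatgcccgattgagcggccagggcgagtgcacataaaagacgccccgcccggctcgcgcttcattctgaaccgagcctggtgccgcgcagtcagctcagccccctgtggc
Id3: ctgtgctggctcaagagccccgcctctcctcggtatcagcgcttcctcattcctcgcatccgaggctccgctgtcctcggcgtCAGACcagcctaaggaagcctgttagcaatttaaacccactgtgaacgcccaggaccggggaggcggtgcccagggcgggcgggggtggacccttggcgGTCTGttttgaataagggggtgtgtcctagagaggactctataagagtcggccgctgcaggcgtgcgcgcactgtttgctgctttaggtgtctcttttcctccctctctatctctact
Id4: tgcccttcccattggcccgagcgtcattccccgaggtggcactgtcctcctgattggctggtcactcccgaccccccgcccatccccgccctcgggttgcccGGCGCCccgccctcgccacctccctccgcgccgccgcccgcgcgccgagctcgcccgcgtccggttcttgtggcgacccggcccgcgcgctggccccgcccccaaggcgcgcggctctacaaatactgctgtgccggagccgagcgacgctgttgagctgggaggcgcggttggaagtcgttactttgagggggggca
Bmp4: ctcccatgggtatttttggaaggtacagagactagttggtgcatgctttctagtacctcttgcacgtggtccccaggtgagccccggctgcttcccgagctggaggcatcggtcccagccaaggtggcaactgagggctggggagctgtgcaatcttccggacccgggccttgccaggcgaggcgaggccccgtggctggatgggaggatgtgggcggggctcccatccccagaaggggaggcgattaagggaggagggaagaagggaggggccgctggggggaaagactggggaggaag

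Of the genes with GGCGCC in their window, Id2 and Bmpr1a were called higher and Id4 lower in Stag2-/- siStag1 cells. Bmp4, Smad1, Smad6 and Msx2, with none of the searched letters, were called there as well. The windows reach only 250 bases before the start, and the part of these letters in the changes was not tested. A match is a description of the letters, not a measured binding site.

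Id1 is the ID gene used most often as a readout of BMP signalling. Normalized counts of Id1 were 588, 700.5 and 469 in wild-type siGLO cells, 678, 724 and 781 in Stag1-/- cells, 737, 1023 and 773 in wild-type siStag1 cells, 857, 883 and 526 in Stag2-/- siGLO cells, and 886, 1015 and 432 in Stag2-/- siStag1 cells. The wild-type siStag1 libraries stood above the wild-type siGLO range, and replicate 3 of both Stag2-/- conditions was far below its other 2 replicates. The log2 difference from wild-type siGLO was 0.53 (SE 0.25, adjusted p = 0.8 by edgeR) in wild-type siStag1 cells, 0.31 (SE 0.25, adjusted p = 0.469) in Stag1-/- cells, 0.37 (SE 0.26, adjusted p = 0.333) in Stag2-/- siGLO cells and 0.41 (SE 0.25, adjusted p = 0.227) in Stag2-/- siStag1 cells. Without Stag2-/- siStag1 replicate 3 the last of these passed, at 0.70 (adjusted p = 0.018 by edgeR).

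Id2 was the member that rose most in Stag1-/- cells. In normalized counts Id2 measured 241, 244 and 200.3 in wild-type siGLO cells, 645, 692 and 788 in Stag1-/- cells, 294, 303 and 325 in wild-type siStag1 cells, 332, 393 and 349.5 in Stag2-/- siGLO cells, and 485, 671 and 312.5 in Stag2-/- siStag1 cells. Every library of the other 4 conditions was above every wild-type siGLO library. The rise was 1.63 in Stag1-/- cells (SE 0.20, adjusted p = 4.72e-05 by edgeR), 0.65 in Stag2-/- siGLO cells (SE 0.20, adjusted p = 0.0305) and 1.10 in Stag2-/- siStag1 cells (SE 0.20, adjusted p = 0.000451), whereas the difference of 0.43 in wild-type siStag1 cells did not pass (SE 0.20, adjusted p = 0.782). The call in Stag2-/- siGLO cells was lost without wild-type siGLO replicate 3 (adjusted p = 0.115 by edgeR) or Stag2-/- siGLO replicate 2 (0.103), and the other 2 calls held without any single library. With the replicate block the Stag2-/- siGLO rise was 0.65 (SE 0.18, adjusted p = 0.0123 by edgeR).

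Id3 rose in both Stag2-/- conditions from a wild-type level that differed 6.26-fold between its highest and lowest replicate. Its normalized counts were 236.5, 107 and 37.8 in wild-type siGLO cells, 320, 171 and 240 in Stag1-/- cells, 140, 121 and 90.9 in wild-type siStag1 cells, 402, 490 and 260 in Stag2-/- siGLO cells, and 425, 389 and 246 in Stag2-/- siStag1 cells. All 6 Stag2-/- libraries were above all wild-type siGLO libraries, and the Stag1-/- libraries overlapped them. Id3 rose by 1.59 in Stag2-/- siGLO cells (SE 0.43, adjusted p = 0.0163 by edgeR) and by 1.47 in Stag2-/- siStag1 cells (SE 0.43, adjusted p = 0.014), and both calls held without any single library. Leaving out wild-type siGLO replicate 1, the highest of its group, moved these to 2.41 and 2.29. The Stag1-/- difference of 0.93 (SE 0.43, adjusted p = 0.171 by edgeR) passed with the replicate block, at 1.08 (adjusted p = 0.0182), and without that same library, at 1.76 (adjusted p = 0.012).

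Id4 is known for its role in neural precursors and was the least abundant ID gene per length. The Id4 libraries held normalized counts of 87.0, 69.1 and 80.3 in wild-type siGLO cells, 62.0, 85.7 and 85.0 in Stag1-/- cells, 55.9, 36.8 and 48.4 in wild-type siStag1 cells, 20.1, 60.4 and 82.3 in Stag2-/- siGLO cells, and 19.7, 48.9 and 34.4 in Stag2-/- siStag1 cells. Both siStag1 conditions lay below the wild-type siGLO range. Id4 fell by 1.20 in Stag2-/- siStag1 cells (SE 0.39, adjusted p = 0.0244 by edgeR), and the call held without any single library. The difference of -0.75 in wild-type siStag1 cells did not pass (SE 0.38, adjusted p = 0.83 by edgeR).

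Summed per kb of exon, the 4 ID genes reached 690 ± 140 normalized counts per kb in wild-type siGLO cells (SD, n = 3), 1074 ± 68.4 in Stag1-/- cells, 932 ± 132 in wild-type siStag1 cells, 1027 ± 234 in Stag2-/- siGLO cells and 1077 ± 383 in Stag2-/- siStag1 cells. The Stag1-/- and wild-type siStag1 sums did not overlap those of wild-type siGLO cells, and both Stag2-/- conditions did, each through its replicate 3. The make-up of the sum differed between the conditions. Id1 made up 73.5% ± 5.92 of it in wild-type siGLO cells and 58.4% ± 2.41 in Stag1-/- cells, where the Id2 share was 27.0% ± 1.47 against 13.8% ± 1.52. The Id3 share was 20.6% ± 1.82 in Stag2-/- siGLO cells against 9.66% ± 6.91 in wild-type siGLO cells. These sums and shares are given as a description, with no test.

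**Figure D2:**
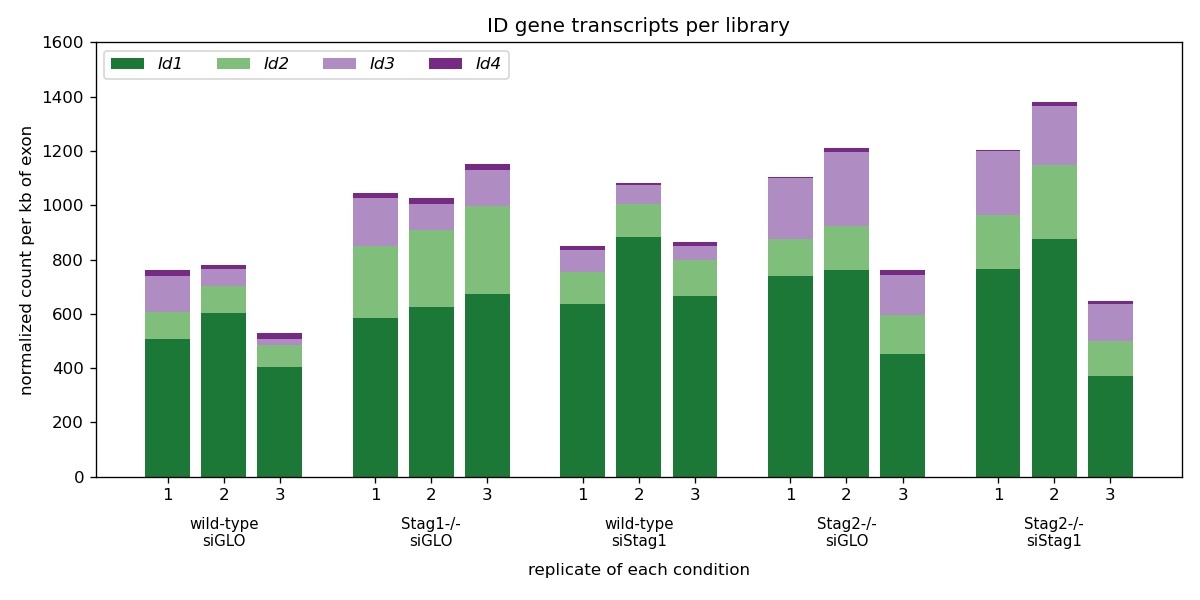
Stacked normalized counts per kb of exon of Id1, Id2, Id3 and Id4 in each of the 15 libraries, on a linear axis from 0. Id1 is the largest block in every library, the Id2 block is on average widest in Stag1-/- cells (mean 291 per kb), and replicate 3 is the lowest of its group in both Stag2-/- conditions.

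Msx2, a homeobox gene that BMP signalling switches on in many tissues, was the least abundant member per length in wild-type siGLO cells and fell in Stag2-/- siStag1 cells. Its normalized counts were 32.7, 39.6 and 37.8 in wild-type siGLO cells, 30.5, 38.0 and 28.9 in Stag1-/- cells, 38.5, 41.4 and 40.6 in wild-type siStag1 cells, 27.5, 52.8 and 39.1 in Stag2-/- siGLO cells, and 11.8, 17.7 and 17.2 in Stag2-/- siStag1 cells. The Stag2-/- siStag1 values rest on 12, 17 and 17 counts and lie below all other 12 libraries. Msx2 fell there by 1.23 (SE 0.29, adjusted p = 0.00373 by edgeR), and the call held without any single library. In the other 3 conditions its log2 difference lay between -0.18 and 0.13 and did not pass.

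**Figure D3:**
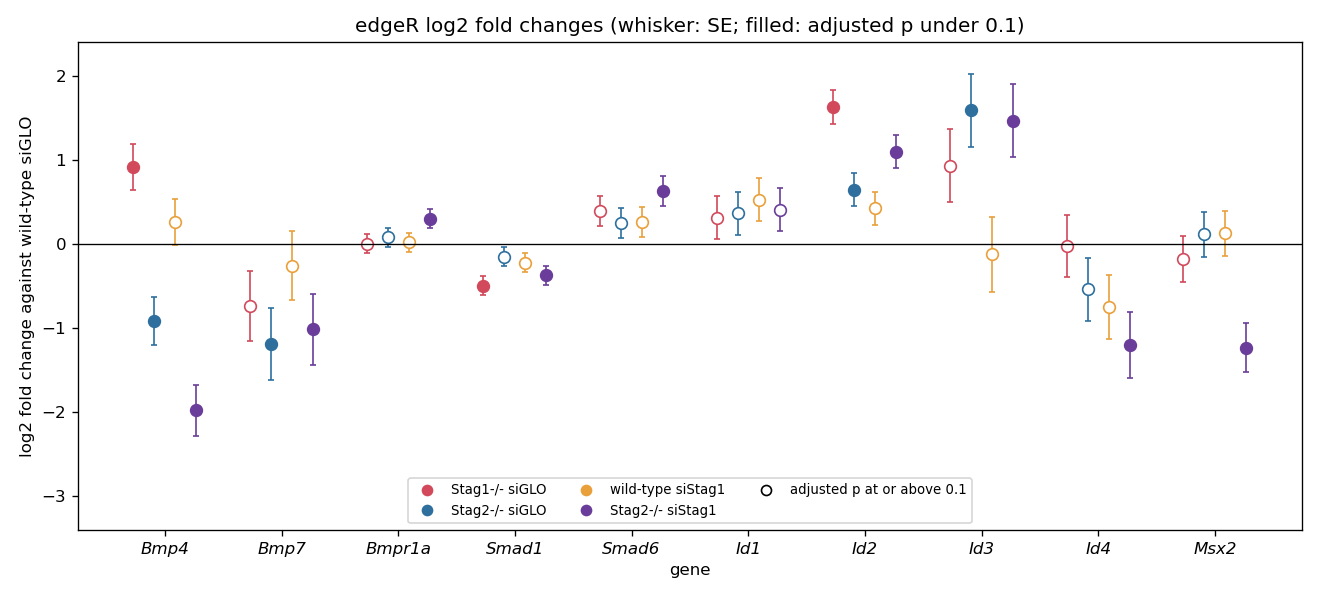
Log2 fold changes of the 10 genes against wild-type siGLO with their SE as whiskers, filled where edgeR's adjusted p was under 0.1 and open where it was not. Bmp4 is at 0.92 in Stag1-/- cells and at -0.92 and -1.97 in the Stag2-/- conditions, and no wild-type siStag1 point is filled.

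The 4 comparisons with wild-type siGLO share those 3 libraries, so their values are given side by side without a test of likeness. In Stag1-/- cells 3 of the 10 members passed, against 20% of all genes tested, with Bmp4 and Id2 higher and Smad1 lower. The replicate block raised this to 6, against 30.6% of all genes, adding Bmp7, Smad6 and Id3, and a fit of only these 6 libraries called 5. In Stag2-/- siGLO cells 4 of 10 passed, against 28.3%, with Id2 and Id3 higher and Bmp4 and Bmp7 lower, and the count fell to 2 without wild-type siGLO replicate 2 or 3 and to 1 without Stag2-/- siGLO replicate 2. In Stag2-/- siStag1 cells 9 of 10 passed, against 43.9%, with Bmpr1a, Smad6, Id2 and Id3 higher and Bmp4, Bmp7, Smad1, Id4 and Msx2 lower. The median log2 difference over the 10 members was 0.16, 0.10 and -0.03 in these conditions, beside -0.01, 0.01 and 0.01 over all genes. Because the members were chosen with earlier results of these data known, these counts beside the shares of all genes are a description, not a test.

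After siStag1 in wild-type cells edgeR called 0 of 10 members, against 0.248% of all genes, and DESeq2 also called 0, against 0.903%. At an unadjusted p under 0.05 the edgeR test held 1 member, Id2, against 6.36% of all genes. The replicates of Smad1, Id1, Id2 and Id4 did not overlap those of wild-type siGLO cells, which was also true of 15.5% of all genes. The same count of members without overlap was 4 in Stag1-/- cells, against 31.7% of all genes, 5 in Stag2-/- siGLO cells, against 35.7%, and 8 in Stag2-/- siStag1 cells, against 47.3%.

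Compared directly, the knockouts differed at 3 of the 10 members, against 25.7% of all genes. Bmp4 was higher in Stag1-/- than in Stag2-/- siGLO cells by 1.84 (SE 0.29, adjusted p = 0.000382 by edgeR), a fold of 3.58, and Id2 was higher by 0.98 (SE 0.19, adjusted p = 0.00233). Smad1 was lower by 0.35 in Stag1-/- cells, as a log2 difference of -0.35 (SE 0.11, adjusted p = 0.0462 by edgeR), and this call was lost without Stag1-/- replicate 1 (0.141) or 2 (0.173), without Stag2-/- siGLO replicate 2 (0.135), or when only these 6 libraries were fitted (0.166). The replicate block raised the count to 4, against 37.3%, and added Bmp7, higher in Stag1-/- cells by 0.53 (adjusted p = 0.0654 by edgeR). Smad1 passed with the block too, at -0.35 (SE 0.11, adjusted p = 0.02 by edgeR). Id3, which passed in Stag2-/- and not in Stag1-/- cells against wild-type, differed between the knockouts by -0.66 (SE 0.41, adjusted p = 0.292 by edgeR), so the 2 effects were not shown to differ.

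Knockdown of Stag1 within Stag2-/- cells changed 2 of the 10 members, against 6.37% of all genes. Msx2 fell by 1.35 (SE 0.29, adjusted p = 0.0162 by edgeR) and Bmp4 by 1.06 (SE 0.31, adjusted p = 0.0689), each in 3 of 3 replicate numbers. Both also passed with the replicate block, Msx2 at -1.33 (adjusted p = 0.005 by edgeR) and Bmp4 at -1.07 (adjusted p = 0.00971). When only these 6 libraries were fitted, neither passed (adjusted p = 0.178 for Msx2 and 0.237 for Bmp4 by edgeR), and the Bmp4 call was also lost without Stag2-/- siGLO replicate 1 (0.215) or 2 (0.108) or without Stag2-/- siStag1 replicate 2 (0.224) or 3 (0.287). The other 8 members did not pass, and Id2 and Id3 had differences of 0.45 (SE 0.19, adjusted p = 0.247 by edgeR) and -0.12 (SE 0.41, adjusted p = 0.924). Id2 passed without Stag2-/- siStag1 replicate 3, at 0.69 (adjusted p = 0.0265 by edgeR), and Id4 without Stag2-/- siGLO replicate 1, at -1.06 (adjusted p = 0.0945). Whether the knockdown acted differently in Stag2-/- and wild-type cells was tested as an interaction. The siRNA left 0.345 of the Stag1 level in Stag2-/- and 0.206 in wild-type cells, and the part of this was not tested. It passed for 0 of 10 members, against 0.159% of all genes, while DESeq2 passed 0 as well, against 0.703%. At an unadjusted p under 0.05, against 5.8% of all genes, it held Bmp4, at -1.32 (SE 0.41, adjusted p = 0.464 by edgeR), and Msx2, at -1.48 (SE 0.40, adjusted p = 0.319). Bmp4 passed without Stag2-/- siStag1 replicate 1, at -1.76 (adjusted p = 0.0727 by edgeR). With the replicate block both passed, at -1.35 (adjusted p = 0.0743 by edgeR) and -1.46 (adjusted p = 0.0998), so the count was 2 of 10, against 0.951%. Same-numbered libraries deviated together within each genotype (lowest r 0.26 in wild-type and 0.3 in Stag2-/- cells) but not throughout across genotypes (lowest r -0.0949).

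Part of the spread within conditions followed the replicate number. Bmp7 was lowest in replicate 1 and below its condition mean there in 5 of 5 conditions, by 0.70 on the log2 scale on average. Bmp4 was below its condition mean in replicate 3 in 5 of 5 conditions, by 0.33 on average. Over the 15 libraries the log2 levels of Bmp7 and Id3 had a correlation of -0.81, and those of Id1 and Id2 had one of 0.43, or 0.78 after the condition means were removed. These correlations describe libraries that share conditions, replicate numbers and sequencing, and carry no test.

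The wider pathway was read from a list of 60 further genes, of which 46 were tested. Of these 18 passed in Stag1-/- cells (9 higher, 9 lower), 18 in Stag2-/- siGLO cells (9 and 9), 1 in wild-type siStag1 cells (Tbx3, lost without replicate 1 or 2 of that group) and 26 in Stag2-/- siStag1 cells (15 higher, 11 lower). As shares these are 39.1%, 39.1%, 2.17% and 56.5% of the genes tested, beside the shares of all genes given above. This list too was chosen with earlier results of these data known, so the shares are a description. Knockdown of Stag1 within Stag2-/- cells changed 9 of them, beside 6.37% of all genes, a count that ranged from 2 to 8 as single libraries were left out and was 2 without Stag2-/- siStag1 replicate 2, 3 without its replicate 3 or Stag2-/- siGLO replicate 2, and 5 without Stag2-/- siGLO replicate 1 or 3.

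Among the ligands, Bmp6 went from a mean of 213 normalized counts in wild-type siGLO cells to 73.0 in Stag1-/- cells, 62.8 in Stag2-/- siGLO cells and 84.3 in Stag2-/- siStag1 cells, falling by 1.55, 1.76 and 1.34 (SE 0.16 in each, adjusted p = 1.16e-05, 3.66e-06 and 9.47e-06 by edgeR). Bmp8b rose in Stag1-/- cells, from 63.3 to 279 (log2 difference 2.14, SE 0.23, adjusted p = 1.61e-05 by edgeR). Bmp4 thus had its 2 opposite calls beside a ligand that fell in both knockouts. Eng, an accessory receptor, also fell in both knockouts, from 602 to 435 and 342 normalized counts, and Rgma, a BMP co-receptor, rose in both Stag2-/- conditions, from 40.0 to 88.3 and 146. Smad5, which shares the role of Smad1, moved unlike it in Stag2-/- siStag1 cells, rising by 0.43 (SE 0.11, adjusted p = 0.00659 by edgeR) where Smad1 fell, while in Stag1-/- cells it fell by 0.36 (SE 0.11, adjusted p = 0.0429).

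Of 6 intracellular inhibitors, 4 passed in Stag1-/- cells, 2 in Stag2-/- siGLO cells and 3 in Stag2-/- siStag1 cells, beside 20%, 28.3% and 43.9% of all genes. Ski, Skil and Ppm1a rose in Stag1-/- cells. Ppm1a did not pass in the Stag2-/- conditions, at means of 2490 and 2336 normalized counts against 2497 in wild-type siGLO cells. SKI and SKIL repress SMAD-driven transcription and PPM1A is a phosphatase of activated SMADs. Skil stood at a mean of 3862 normalized counts in wild-type siGLO cells, 6029 in Stag1-/- cells, 5193 in Stag2-/- siGLO cells and 7249 in Stag2-/- siStag1 cells, and passed in all 3. Tob1, which binds SMADs and restrains BMP signalling in bone cells, moved the other way, from a mean of 590 to 422, 400.3 and 309, and fell by 0.48, 0.56 and 0.93 (adjusted p = 0.0823, 0.0361 and 0.000802 by edgeR). Of 12 extracellular inhibitors and modulators tested, 5 passed in Stag1-/- cells, 4 in Stag2-/- siGLO cells and 6 in Stag2-/- siStag1 cells, in both directions, beside 20%, 28.3% and 43.9% of all genes. Bmper, a secreted modulator of BMP availability, fell in all 3, from a mean of 85.7 normalized counts to 3.89 in Stag1-/- cells, where it rested on 6, 5 and 1 counts, and to 16.3 and 19.9 in the Stag2-/- conditions (log2 differences -4.44, -2.39 and -2.09, adjusted p = 0.000154, 0.00388 and 0.00357 by edgeR).

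The other target genes that passed in Stag2-/- siGLO cells and in Stag2-/- siStag1 cells were Tbx3, Dusp9 and Gata2, 3 of 6 tested, beside 28.3% and 43.9% of all genes, and all were lower. Tbx3, a T-box factor of the naive stem cell state, stood at a mean of 2143 normalized counts in wild-type siGLO cells, 402 in Stag1-/- cells, 883 in Stag2-/- siGLO cells, 1170 in wild-type siStag1 cells and 238 in Stag2-/- siStag1 cells, and passed in all 4. Dusp9, a phosphatase of ERK kept up by BMP in mESCs, went from 3541 to 1858 and 1642 in the Stag2-/- conditions. Id2 and Id3 rose in the Stag2-/- conditions, where these 3 genes were lower.

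Of the E proteins that ID proteins hold in check, 3 were tested, each as a single gene. In Stag2-/- siGLO cells, where 28.3% of all genes passed, all 3 rose, Tcf3 by 0.44 (SE 0.08, adjusted p = 0.00156 by edgeR), Tcf4 by 0.43 (SE 0.12, adjusted p = 0.0191) and Tcf12 by 0.35 (SE 0.11, adjusted p = 0.0311). In Stag2-/- siStag1 cells, where 43.9% of all genes passed, they rose by 0.56, 0.81 and 0.69, with adjusted p = 7.41e-05, 7.54e-05 and 0.000132 by edgeR. In Stag1-/- cells, where Id2 rose most, Tcf3 rose by 0.23 (SE 0.08, adjusted p = 0.0698 by edgeR) with overlapping replicates, and Tcf4 and Tcf12 had differences of -0.23 and 0.10 that did not pass (adjusted p = 0.239 and 0.595).

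**Figure D4:**
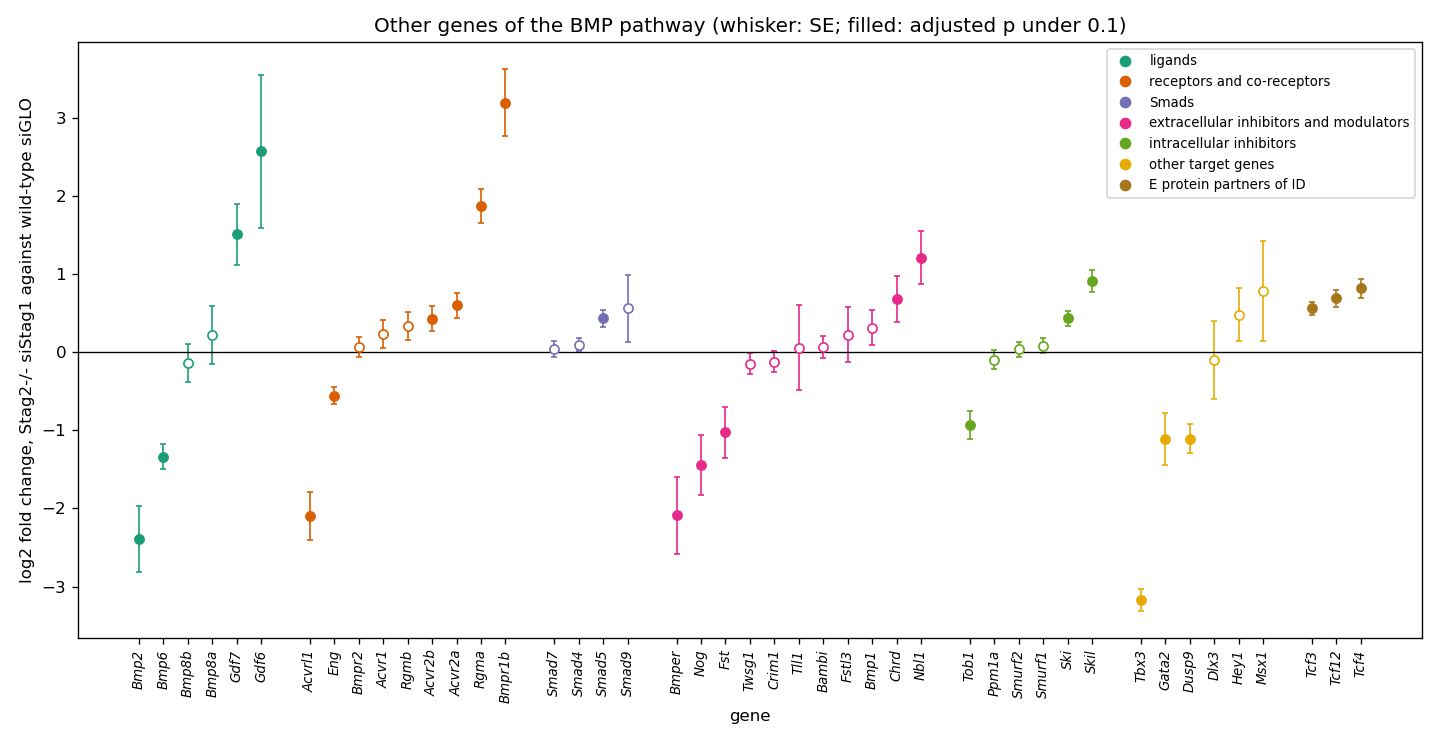
Log2 fold changes of 45 further BMP pathway genes in Stag2-/- siStag1 cells against wild-type siGLO, grouped by role, with their SE as whiskers and filled where edgeR's adjusted p was under 0.1. One tested gene is left out because its wild-type siGLO mean lay under the level of 3 counts, Tbx3 is the lowest point at -3.17, and the 3 E proteins are all above 0.

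The genes most like a member were ranked by Pearson's r of log2 levels over the 15 libraries, among 11520 tested genes with a mean of at least 50 normalized counts. For Bmp4 the closest were Myo1c (r = 0.98), Tgm1 (0.98) and Arpc1b (0.97). For Id1 they included Fdxacb1 (0.76) and Stx3 (0.76). Over the 5 condition means the same genes had r of 0.989, 0.985 and 0.998 with Bmp4 and of 0.902 and 0.663 with Id1. The pattern of Id1 over the libraries was matched less closely than that of Bmp4.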

How the data were processed

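RNA-seq counts per gene were deposited as 1 table for each of 15 libraries. Per the labels, the authors enriched polyadenylated RNA, and their processing notes name STAR, DESeq2 and mm10. The counting tool and its strand setting are not given in the sources used here. The deposited counts are whole, unnormalized reads, and 4 summary lines were left out. The 10 members and the list of 60 further pathway genes were chosen with earlier results of these data known.

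All 15 libraries were fitted together in edgeR 4.0.16 (R 4.3.3) with TMM scaling, 1 coefficient per condition and quasi-likelihood tests, two-sided. Genes passed filterByExpr at a minimum count of 10 and a minimum total of 15, which kept 14508 of 23412 genes. P-values were adjusted by Benjamini-Hochberg over these genes, with a threshold of 0.1. DESeq2 1.42.0 was an alternative, and the fits were first tested on simulated data. Besides the 10 members, text names were limited to further genes called without overlap at a mean of at least 50 normalized counts, the 3 genes most like Bmp4 and Id1 (1 is not reported here), and Stag1 and Stag2. Nanog and the other lineage markers named, from fixed lists, were picked after their values were seen, as was Bmper in Stag1-/- cells and Tob1 there.

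Totals had a median of 17700059 counts, and 3 counts corresponded to 2.71 to 3.5 normalized counts. Counting error alone is covered by that floor. Replicate pairs of 1 condition differed beyond sampling noise (chi-square per degree of freedom 4.52 to 25.2 over 15 pairs), so none was merged. Deviations from the condition means had r over 0.1 in 27 of 30 same-numbered pairs of libraries (mean r 0.308 over 11529 genes) and in 8 of 60 pairs with different numbers. The mean r of -0.15 for different numbers is largely set by centring on the condition means, so it is not a separate contrast. Every same-numbered pair had r over 0.1 in 5 of the 6 pairwise comparisons, the exception being Stag2-/- siStag1 against wild-type siGLO (lowest r 0.0448), so the replicate number was taken to pair the samples in those 5. In the interaction it paired them within each genotype only. Exon lengths came from GENCODE M21 (GRCm38) and start regions from RefSeq (GRCm38.p6). Alternatives were other scalings, filters, libraries, thresholds and the replicate block.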

Additional observations from a re-analysis of the deposited data

Results flagged for a closer look

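The siStag1 effect on Tbx3 differed between genotypes. Its log2 difference was -0.87 in wild-type cells (SE 0.13, adjusted p = 0.0225 by edgeR) and -1.89 in Stag2-/- cells (SE 0.14, adjusted p = 7.93e-07), a difference between the effects of -1.02 (SE 0.18, adjusted p = 0.0444 by edgeR's interaction test). The 2 effects had the same sign, and both siStag1 groups lay below their siGLO group in every replicate. The interaction call was lost without wild-type siGLO replicate 2 or without wild-type siStag1 replicate 1 or 3. With all 15 libraries and no replicate block, no member passed the same test.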

How the results depend on the processing

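Counts of members called differed by at most 1.5 times from those above under other scalings, filters and DESeq2. With the replicate block they were 6 in Stag1-/- cells and 2 (Bmp4 and Msx2) for the interaction, and the block moved no other count of members by over 1.5 times. Fits of only the libraries compared called 5 members in Stag1-/- cells and 0 for siStag1 within Stag2-/- cells (2 of the wider list), and a threshold of 0.05 called 1 (2 of the wider list).

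Over all genes, the replicate block called 4443 in Stag1-/- cells (2907 without it), 236 in wild-type siStag1 cells (36), 2049 for siStag1 within Stag2-/- cells (924) and 138 for the interaction (23). DESeq2 called 131 in wild-type siStag1 cells and 102 for the interaction. Fits of only the libraries compared called 126 in wild-type siStag1 cells, 2406 between the knockouts (3722), 224 for siStag1 within Stag2-/- cells and 14 for the interaction, and a threshold of 0.05 called 22 in wild-type siStag1 cells and 548 for siStag1 within Stag2-/- cells. The cause of these shifts was not tested.

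As single libraries were left out, members called ranged from 1 to 4 in Stag2-/- siGLO cells, 1 to 2 for siStag1 within Stag2-/- cells and 0 to 1 for the interaction. The wider list ranged from 0 to 1 in wild-type siStag1 cells and for the interaction, and from 2 to 8 for siStag1 within Stag2-/- cells. All genes ranged from 1915 to 2748 in Stag1-/- cells, 2524 to 3985 in Stag2-/- siGLO cells, 1 to 15 in wild-type siStag1 cells, 416 to 1484 for siStag1 within Stag2-/- cells and 13 to 76 for the interaction. 

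No called member changed sign. Signs changed only for differences that had not passed. Bmpr1a in Stag1-/- cells was -0.00295 with the replicate block and -0.00368 on library size alone. In the interaction, Smad1 was 0.0118 on library size alone, Id2 was -0.00145 with the block and -0.00233 with no filter, and Id3 was -0.133 with the block, -0.013 in DESeq2, -0.00479 with DESeq2 size factors, -0.0246 with no filter and -0.00942 with at least 10 counts in every library. With single libraries left out, Bmpr1a ranged from -0.109 to 0.105 and Id4 from -0.108 to 0.114 in Stag1-/- cells, and Msx2 from -0.14 to 0.322 in Stag2-/- siGLO cells. In wild-type siStag1 cells Bmp4 ranged from -0.0453 to 0.49, Bmp7 from -0.552 to 0.0797, Bmpr1a from -0.0195 to 0.0631 and Id3 from -0.557 to 0.701. Between the knockouts Bmpr1a ranged from -0.194 to 0.0201, Smad6 from -0.0321 to 0.28 and Id1 from -0.257 to 0.0752. For siStag1 within Stag2-/- cells Bmp7 ranged from -0.209 to 0.546, Id1 from -0.196 to 0.332 and Id3 from -0.338 to 0.0934. For the interaction Smad1 ranged from -0.0725 to 0.0355, Smad6 from -0.0616 to 0.251, Id2 from -0.273 to 0.262, Id3 from -0.822 to 0.435 and Id4 from -0.307 to 0.519. Msx2, with 12 to 17 counts in Stag2-/- siStag1 libraries, is the member most limited by depth.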
